A study of Mus musculus with 12 samples.

Results

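The genes described here are the 8 that encode the peroxisome proliferator-activated receptors (Ppara, Ppard and Pparg), the retinoid X receptors with which they pair (Rxra, Rxrb and Rxrg) and the PGC1 coactivators (Ppargc1a and Ppargc1b). They were chosen by name, as 8 of the 47643 genes in a table of expected counts from bulk RNA-seq of mouse intestine. Of these 8, 7 were among the 17602 genes that passed the filter on low counts, and Rxrg was not. The study crossed genotype with diet in male C57BL/6 mice, 7 to 8 weeks old, which were fed for 10 days. The 4 groups of 3 libraries are named here from the sample titles. KO HFD is PparaΔIE on a 60% high-fat diet (HFD), WT HFD is Pparafl/fl on the same diet, KO chow is PparaΔIE on chow, and WT chow is Pparafl/fl on chow. Both genotypes are thus described as carrying an engineered Ppara locus, and the animals titled WT have floxed rather than unmodified alleles. A name of the form PparaΔIE conventionally marks deletion in the intestinal epithelium, so the other cells of the gut wall would keep the gene. The labels name no recombinase line, no deleted exon and no gut segment. Nor do they state that each library is from its own mouse, so p-values measure only the spread between libraries, and part or all of that spread may be technical.

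PPARs are nuclear receptors that bind fatty acids and their derivatives, sit on DNA as pairs with an RXR, and switch on genes of fat uptake, transport and oxidation. PPARA is known as the main inducer of fatty acid oxidation and ketone body genes in liver and in the absorptive cells of the small intestine. PPARD is expressed in most tissues, including the crypts of the gut. PPARG is the regulator of fat cell differentiation and is also expressed in gut epithelium, most of all in the colon. RXRs are shared partners that pair also with the receptors of retinoic acid, thyroid hormone, vitamin D, bile acids and oxysterols. PGC1-alpha (Ppargc1a) and PGC1-beta (Ppargc1b) do not bind DNA themselves but dock on PPARs and other nuclear receptors and are known for raising mitochondrial and oxidative genes.

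Library totals ran from 33621040 to 53959405 expected counts. Epithelial markers were abundant in every library, with Vil1, a brush border protein, at 2556 to 3304 CPM (counts scaled to a common library size). Summed markers of distal ileum were present at 5086 to 6971 CPM, and those of proximal small intestine at 1065 to 3601 CPM. In every library Lct was at most 256 CPM, Gata4 at most 12.9 CPM and Pdx1 at most 0.174 CPM. Most of the proximal sum thus came from the other listed genes, Cubn and Cyp2b10. The third KO chow library lay between the other KO chow libraries for 96.9% of the 223 genes that differed at least 2-fold between those, a share that was 10.9% to 76.7% for the other 11 libraries. The first WT chow library lay between the others of its group for 66.7% of 30 such genes. By this measure it was not unusual, since the share was higher for KO HFD 1 (75.8% of 124), KO HFD 2 (76.7% of 90) and WT HFD 2 (71.5% of 130). Values without both the first WT chow and the third KO chow library are given beside the results they change. That omission also makes both chow groups smaller, so a call lost there cannot be put down to the libraries left out. The spread within groups was unlike, with a biological coefficient of variation of 0.14 in KO HFD, 0.146 in WT HFD, 0.151 in KO chow and 0.0583 in WT chow, while the tests used a single estimate for all groups.

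Promoter sequences are shown for the receptor genes whose levels moved with diet or genotype, Ppara and Pparg, and for Fabp1, a PPARA target among the genes counted below. PPAR and RXR pairs are known to bind a repeat of the hexamer AGGTCA with a spacer base between the copies (AGGTCANAGGTCA, known as DR1). Each stretch is the 250 bases before a RefSeq transcription start on GRCm38.p6, read on the + strand, at chr15:85735526-85735775 for Ppara, chr6:115360894-115361143 for Pparg start 1, chr6:115421816-115422065 for Pparg start 3 and chr6:71199629-71199878 for Fabp1. Capitals mark matches to AGGTCA on either strand and, in Fabp1, the run that matches AGGNCANAGGNCA on the minus strand.
Ppara: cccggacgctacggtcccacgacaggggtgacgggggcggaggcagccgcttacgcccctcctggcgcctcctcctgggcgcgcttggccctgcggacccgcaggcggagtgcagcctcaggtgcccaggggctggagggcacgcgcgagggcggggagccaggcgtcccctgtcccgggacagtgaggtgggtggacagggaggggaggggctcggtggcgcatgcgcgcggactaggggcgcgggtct
Pparg, start 1: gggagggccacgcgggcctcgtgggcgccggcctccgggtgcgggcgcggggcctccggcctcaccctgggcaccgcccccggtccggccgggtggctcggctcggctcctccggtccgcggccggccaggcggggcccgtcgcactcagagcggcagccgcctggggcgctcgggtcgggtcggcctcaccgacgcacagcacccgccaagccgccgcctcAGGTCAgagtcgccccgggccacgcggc
Pparg, start 3: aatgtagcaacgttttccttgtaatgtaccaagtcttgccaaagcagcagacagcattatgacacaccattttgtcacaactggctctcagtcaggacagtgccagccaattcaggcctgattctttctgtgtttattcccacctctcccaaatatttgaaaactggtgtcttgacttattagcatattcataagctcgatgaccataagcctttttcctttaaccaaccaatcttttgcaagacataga
Fabp1: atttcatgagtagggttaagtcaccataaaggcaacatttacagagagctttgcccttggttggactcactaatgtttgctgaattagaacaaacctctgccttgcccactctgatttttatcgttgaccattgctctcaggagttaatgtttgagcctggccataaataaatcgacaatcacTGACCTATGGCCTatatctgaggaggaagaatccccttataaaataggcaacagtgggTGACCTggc

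The AGGTCA hexamer stood once in the promoter of Pparg start 1, 28 bases before the start, and once in that of Pparg start 2, which is not printed, 9 bases before the start. It was not among the letters of the Ppara stretch or of Pparg start 3. Of the other member promoters, Rxra start 2 held it 2 times and Rxrg start 2 held it 1 time. In Fabp1 the run TGACCTATGGCCT lay 67 to 55 bases before the start and overlaps a hexamer match, and another hexamer lay 9 bases before the start. RefSeq windows of 300 bases (250 before and 50 after the start) were found for 7 of the 8 genes, with 12 starts in all, and none of these 12 held AGGTCANAGGTCA. Among 32851 promoters of the same length, 16.3% held AGGTCA, 0.381% held AGGNCANAGGNCA and 0.0396% held AGGTCANAGGTCA, both strands searched. Of 44 promoters of the PPARA target genes described below, 14 (31.8%) held AGGTCA and 1 (2.27%) held AGGNCANAGGNCA. That 1 is the Fabp1 promoter printed above, an example chosen after its values were seen. The Pparg starts differ in base composition, with 80.3% G and C in the 300-base window of start 1, 62.7% in that of start 2 and 40.3% in that of start 3, while the Ppara window held 74.7%.

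Ppara (chromosome 15, 85734983 to 85802819 on the + strand, mm10), the gene targeted in these mice, had a lower level in each KO library than in any WT library on the same diet, and the difference passed the test on HFD but not on chow. On HFD it had 11.4, 11.1 and 17.3 CPM in the KO libraries, against 39.3, 36.6 and 33.7 CPM in the WT libraries. All 3 KO HFD libraries lay below all 3 WT HFD libraries. The mean was 13.3 ± 3.46 CPM in KO HFD and 36.6 ± 2.79 CPM in WT HFD (SD, n = 3 each). Ppara was thus 2.76-fold lower in KO (log2 fold change -1.46, SE 0.21, 95% interval -1.93 to -0.995, edgeR adjusted p = 0.031). Ppara was the only member called between genotypes on HFD, 1 of 7 tested, where 0.29% of all genes were called and 0.187% were called lower. It was also the only member whose groups did not overlap, as was so for 18% of all genes. On HFD 3 of 7 members (Ppara, Ppard and Ppargc1b) had an unadjusted edgeR p under 0.05, as did 2289 of 17602 genes. In whole tissue, fewer cells of a type and less RNA per cell cannot be told apart, and counts summed over the whole gene include exons that may be left after deletion. The call held in 10 of 19 alternatives, the DESeq2 Wald test among them, and was lost in 8 of 12 fits that left out a library. The adjusted p was 0.14 without KO HFD 2, 0.11 without KO HFD 1, 0.11 without WT HFD 2 and 0.076 without WT HFD 1. It was 0.061 without KO chow 3, and 0.062, 0.057 and 0.056 without WT chow 1, 2 and 3. Over these fits the log2 fold change kept to -1.71 to -1.35, and without both WT chow 1 and KO chow 3 the adjusted p was 0.14.

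On chow, Ppara had 8.42, 15.6 and 12.98 CPM in the KO libraries, against 19.2, 18.1 and 22.0 CPM in the WT libraries. The KO chow libraries again all lay below the WT chow libraries, without overlap, as did the groups of 22.1% of all genes. The log2 fold change of -0.68 (SE 0.21, 95% interval -1.15 to -0.21) did not pass, with an edgeR adjusted p of 0.25 and an unadjusted p of 0.0083, and DESeq2 gave an adjusted p of 0.051. None of the 7 tested members was called on chow by edgeR, where 0.125% of all genes were, and DESeq2 also called 0. An unadjusted p under 0.05 was found there for 1 of 7 members and for 2293 of 17602 genes. Averaged over diets, Ppara was 2.1-fold lower in KO than in WT (log2 fold change -1.07, SE 0.15, edgeR adjusted p = 0.013), the only call among the 7 members where 1.49% of all genes were called and 0.846% were called lower. That call was lost without WT chow 1 (adjusted p = 0.057), without KO chow 3 (0.05, just above the threshold) and without both (0.17). It held in 15 of 18 alternatives, the DESeq2 Wald test among them. In the averaged comparison 4 of 7 members (Ppara, Ppard, Ppargc1a and Ppargc1b) had an unadjusted edgeR p under 0.05, as did 3427 of 17602 genes.

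Ppara was higher on HFD than on chow in WT intestine. The WT HFD libraries lay at 39.3, 36.6 and 33.7 CPM and the WT chow libraries at 19.2, 18.1 and 22.0 CPM, and they did not overlap. The log2 fold change was 0.89 (SE 0.21, 95% interval 0.43 to 1.34, edgeR adjusted p = 0.019), or 1.85-fold. In KO intestine the same diet gave 11.4, 11.1 and 17.3 CPM on HFD and 8.42, 15.6 and 12.98 CPM on chow, which overlap. The log2 fold change there was 0.10 (SE 0.22, 95% interval -0.37 to 0.58, edgeR adjusted p = 0.82). The test of the difference between those responses did not pass (-0.78 on the log2 scale, SE 0.30, 95% interval -1.44 to -0.13, unadjusted p = 0.023, edgeR adjusted p = 0.74), so the response was not shown to differ between genotypes. The WT call was lost without WT chow 1 (adjusted p = 0.076), WT chow 2 (0.07) or WT HFD 2 (0.052), without a filter on low counts (0.052), and without both chow libraries named above (0.11). Markers of cell types and segments also differed between diets in WT libraries. Summed epithelial markers were at 13848 to 15553 CPM on HFD and 17720 to 18042 CPM on chow, with 2 of 9 lower by the test. Summed proximal markers, mostly Cubn and Cyp2b10, were at 2573 to 3316 CPM on HFD and 1195 to 1329 CPM on chow, with 2 of 4 tested higher. Of the others, Lct was at 76.2 to 256 CPM on HFD and 2.01 to 2.75 CPM on chow. Gata4 overlapped, at 1.72 to 9.95 CPM on HFD and 2.12 to 2.88 CPM on chow. Summed endothelial markers were at 27.6 to 32.4 CPM on HFD and 17.95 to 21.4 CPM on chow, with 4 of 5 higher. Summed skeletal muscle markers were at 3.41 to 19.5 CPM on HFD and 26.9 to 48.3 CPM on chow, with 1 of 3 tested lower. Between genotypes on HFD, summed smooth muscle markers were at 263 to 292 CPM in KO and 194 to 232 CPM in WT, with 1 of 10 called higher. Epithelial markers overlapped, at 12593 to 14822 CPM in KO and 13848 to 15553 CPM in WT. Summed macrophage markers were at 56.6 to 68.8 CPM in KO and 68.7 to 82.6 CPM in WT, with 0 of 7 called. On chow, summed T cell markers were at 18.3 to 30.3 CPM in KO and 31.5 to 35.6 CPM in WT. Macrophage markers there were at 56.4 to 65.9 CPM in KO and 66.0 to 72.3 CPM in WT. Smooth muscle markers were at 188 to 194 CPM in KO and 201 to 206 CPM in WT. Epithelial markers overlapped (14700 to 18513 and 17720 to 18042 CPM), and none of these lists had a call on chow. The part of these markers in the Ppara differences was not tested.

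Ppard (chromosome 17, 28232700 to 28301474), the broadly expressed PPAR, passed no test. It had 108, 104 and 87.8 CPM in KO HFD and 65.3, 79.3 and 92.0 CPM in WT HFD, with WT HFD 3 above KO HFD 3. The log2 fold change between genotypes on HFD was 0.34 (SE 0.11, 95% interval 0.11 to 0.58, edgeR adjusted p = 0.21). On chow the KO libraries lay at 79.9 to 89.2 CPM and the WT libraries at 76.6 to 81.8 CPM, a log2 fold change of 0.10 (edgeR adjusted p = 0.74). HFD against chow gave -0.01 in WT (edgeR adjusted p = 0.96) and 0.23 in KO (edgeR adjusted p = 0.2) on the log2 scale.

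Pparg (chromosome 6, 115360951 to 115490399) was lower on HFD in both genotypes. In KO intestine it had 3.86, 3.46 and 3.85 CPM on HFD, against 10.9, 9.11 and 9.54 CPM on chow. In WT intestine it had 3.78, 4.37 and 4.06 CPM on HFD, against 7.66, 10.1 and 8.65 CPM on chow. Every HFD library lay below every chow library of either genotype. Pparg fell by 1.40 on the log2 scale in KO (SE 0.13, 95% interval -1.68 to -1.12, edgeR adjusted p = 8.3e-05), or 2.64-fold. It fell by 1.11 in WT (SE 0.13, 95% interval -1.38 to -0.84, edgeR adjusted p = 0.00026), or 2.16-fold. The difference between these responses was -0.29 (95% interval -0.68 to 0.10, edgeR adjusted p = 0.87). The genotypes themselves gave log2 fold changes of -0.13 on HFD (95% interval -0.41 to 0.16, edgeR adjusted p = 0.73) and 0.16 on chow (95% interval -0.10 to 0.42, edgeR adjusted p = 0.59). Both diet calls held in 19 of 19 alternatives, including the 12 that left out a library, with adjusted p of at most 0.0042 in WT and 0.0038 in KO.

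Marker levels are given beside the Pparg differences. Car1, a carbonic anhydrase of colon epithelium, was at 0 to 0.0611 CPM in KO HFD, 0.0273 to 0.0497 CPM in WT HFD, 0.342 to 1.23 CPM in KO chow and 0.261 to 0.479 CPM in WT chow. It was called lower on HFD in both genotypes (edgeR adjusted p = 0.0027 in KO and 0.014 in WT), with at most 2 counts in any HFD library. The other listed colon markers, Hoxb13 and Hoxd13, did not pass the filter on low counts. Each was found in a single library, Hoxb13 in WT HFD 1 (3 counts) and Hoxd13 in WT HFD 2 (1 count), and neither in any chow library. The fat cell genes Adipoq and Plin1 stayed at or below 0.695 and 0.773 CPM in every library, each with its highest value on chow. Of 4 tested fat cell markers only Cidec passed, a lipid droplet protein that enterocytes also express. Cidec was higher on HFD, with log2 fold changes of 0.82 in KO (edgeR adjusted p = 0.034) and 1.49 in WT (edgeR adjusted p = 0.0018). The other 3 tested, Adipoq, Plin1 and Cfd (at most 1.83 CPM), had log2 fold changes below 0 in both genotypes and did not pass. The median of the 4 was -1.12 in KO and -0.79 in WT. Lct, the lactase of proximal enterocytes, was at 50.2, 128 and 144 CPM in KO HFD, 256, 160 and 76.2 CPM in WT HFD, 0.453, 102 and 57.6 CPM in KO chow, and 2.24, 2.75 and 2.01 CPM in WT chow. In KO chow libraries 2 and 3 Lct lay within the range of the HFD libraries, and their Pparg was 9.11 and 9.54 CPM. In KO, summed skeletal muscle markers were at 9.23 to 27.7 CPM on HFD and 32 to 54.8 CPM on chow, and in WT at 3.41 to 19.5 CPM on HFD and 26.9 to 48.3 CPM on chow. Summed smooth muscle markers in KO were at 263 to 292 CPM on HFD and 188 to 194 CPM on chow, with 3 of 10 called higher. Summed epithelial markers in KO were at 12593 to 14822 CPM on HFD and 14700 to 18513 CPM on chow, with 4 of 9 called lower. The part of any of these markers, segment markers included, in the Pparg difference was not tested.

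**Figure D1:**
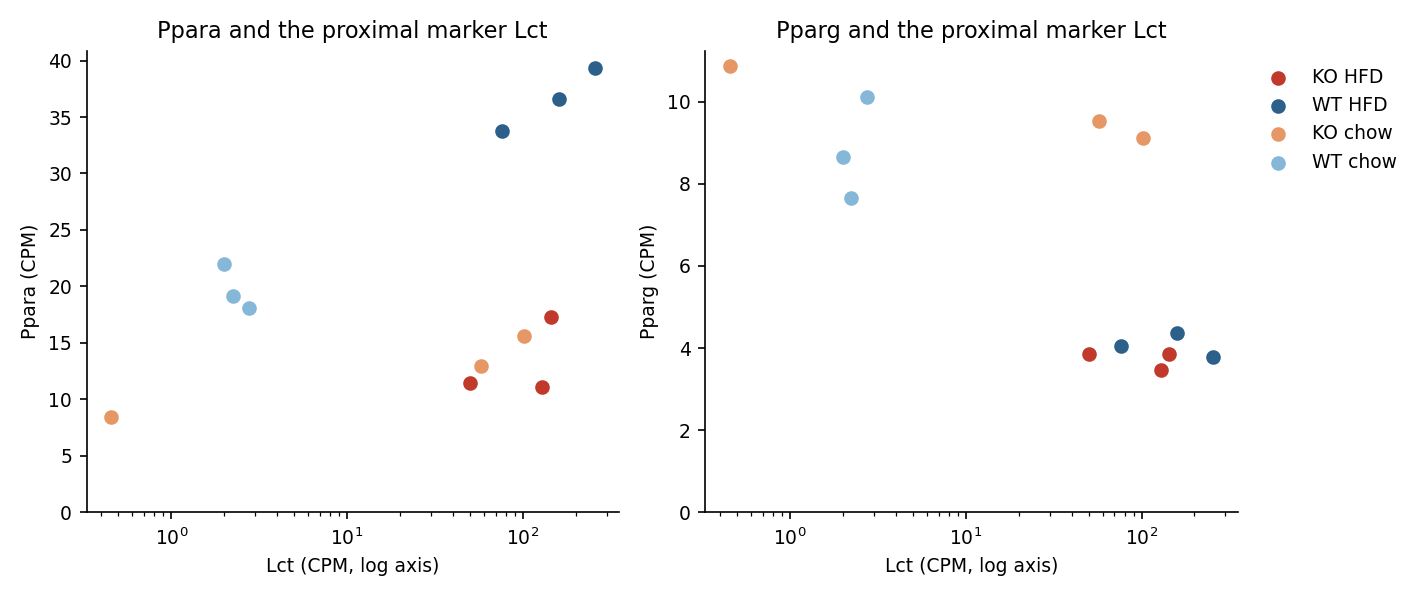
Ppara (left) and Pparg (right) in CPM against Lct in CPM on a log axis, each point a library. Pparg is at 3.46 to 4.37 CPM in the HFD libraries and 7.66 to 10.9 CPM in the chow libraries, and Lct runs from 50.2 to 256 CPM on HFD and from 0.453 to 102 CPM on chow.

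The RXR genes passed no test in any comparison. Rxra (chromosome 2, 27676440 to 27762957), the main RXR of liver and gut epithelium, had 170, 182 and 204 CPM in KO HFD, 153, 193 and 199 CPM in WT HFD, 145, 187 and 165 CPM in KO chow, and 157, 156 and 153 CPM in WT chow. The groups overlap in each comparison of genotype or diet, in WT only through WT HFD 1, which lies among the WT chow libraries. Its log2 fold change was 0.23 for HFD against chow in WT (95% interval -0.01 to 0.46, edgeR adjusted p = 0.18) and 0.16 in KO (edgeR adjusted p = 0.39). Between genotypes it was 0.03 on HFD (95% interval -0.21 to 0.26) and 0.10 on chow. Without WT HFD 1 the diet difference in WT was 0.32 with an adjusted p of 0.043. Rxrb (chromosome 17, 34031812 to 34038399), expressed at a similar level in most tissues, varied least of the 7 tested members, from 25.5 to 30.6 CPM over the 12 libraries. Its log2 fold changes lay between -0.07 and 0.09 over the 4 comparisons of genotype or diet. Rxrg (chromosome 1, 167598384 to 167639623), known from muscle and brain, had 10 counts in all. These were 3, 3 and 0 in KO HFD, 1, 0 and 1 in WT HFD, 0 in each KO chow library, and 2, 0 and 0 in WT chow. No library had more than 3 counts, the limit that a count of 0 allows (0.0568 to 0.0917 CPM by library, for counting error only), so no difference was detectable at this depth.

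Of the PGC1 genes, Ppargc1b passed in a single comparison and Ppargc1a in none. Ppargc1b (chromosome 18, 61298136 to 61400431 on the minus strand), which is known to be induced by dietary fat in mouse liver, fell on HFD in WT intestine. It had 11.1, 13.2 and 11.9 CPM in WT HFD, against 16.2, 15.3 and 16.1 CPM in WT chow. These groups did not overlap, and the log2 fold change was -0.39 (SE 0.11, 95% interval -0.63 to -0.16, edgeR adjusted p = 0.03), or 1.31-fold lower. In KO intestine it had 17.2, 16.04 and 12.8 CPM on HFD, against 14.6, 17.2 and 16.3 CPM on chow, which overlap. The log2 fold change there was -0.06 (95% interval -0.30 to 0.17, edgeR adjusted p = 0.77). The difference between the responses did not pass (0.33, edgeR adjusted p = 0.78), nor did the genotype difference on HFD (0.34, 95% interval 0.11 to 0.58, edgeR adjusted p = 0.22). The WT call was lost without WT chow 1 (adjusted p = 0.099), WT chow 2 (0.06), WT chow 3 (0.1), WT HFD 1 (0.065) or WT HFD 3 (0.091), and without both chow libraries named above (0.14). Ppargc1a (chromosome 5, 51454250 to 51567726 on the minus strand), the coactivator induced by fasting, cold and exercise in other tissues, passed no test. It had 32.5, 37.8 and 46.6 CPM in KO HFD, 26.9, 36.1 and 35.7 CPM in WT HFD, 27.5, 35.7 and 32.6 CPM in KO chow, and 26.2, 26.3 and 28.4 CPM in WT chow. WT chow was the lowest group by mean and KO HFD the highest, and neighbouring groups overlap. Its log2 fold changes were 0.24 between genotypes on either diet (edgeR adjusted p = 0.49 on HFD and 0.47 on chow) and 0.29 between diets in either genotype (edgeR adjusted p = 0.22 in KO and 0.19 in WT).

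**Figure D2:**
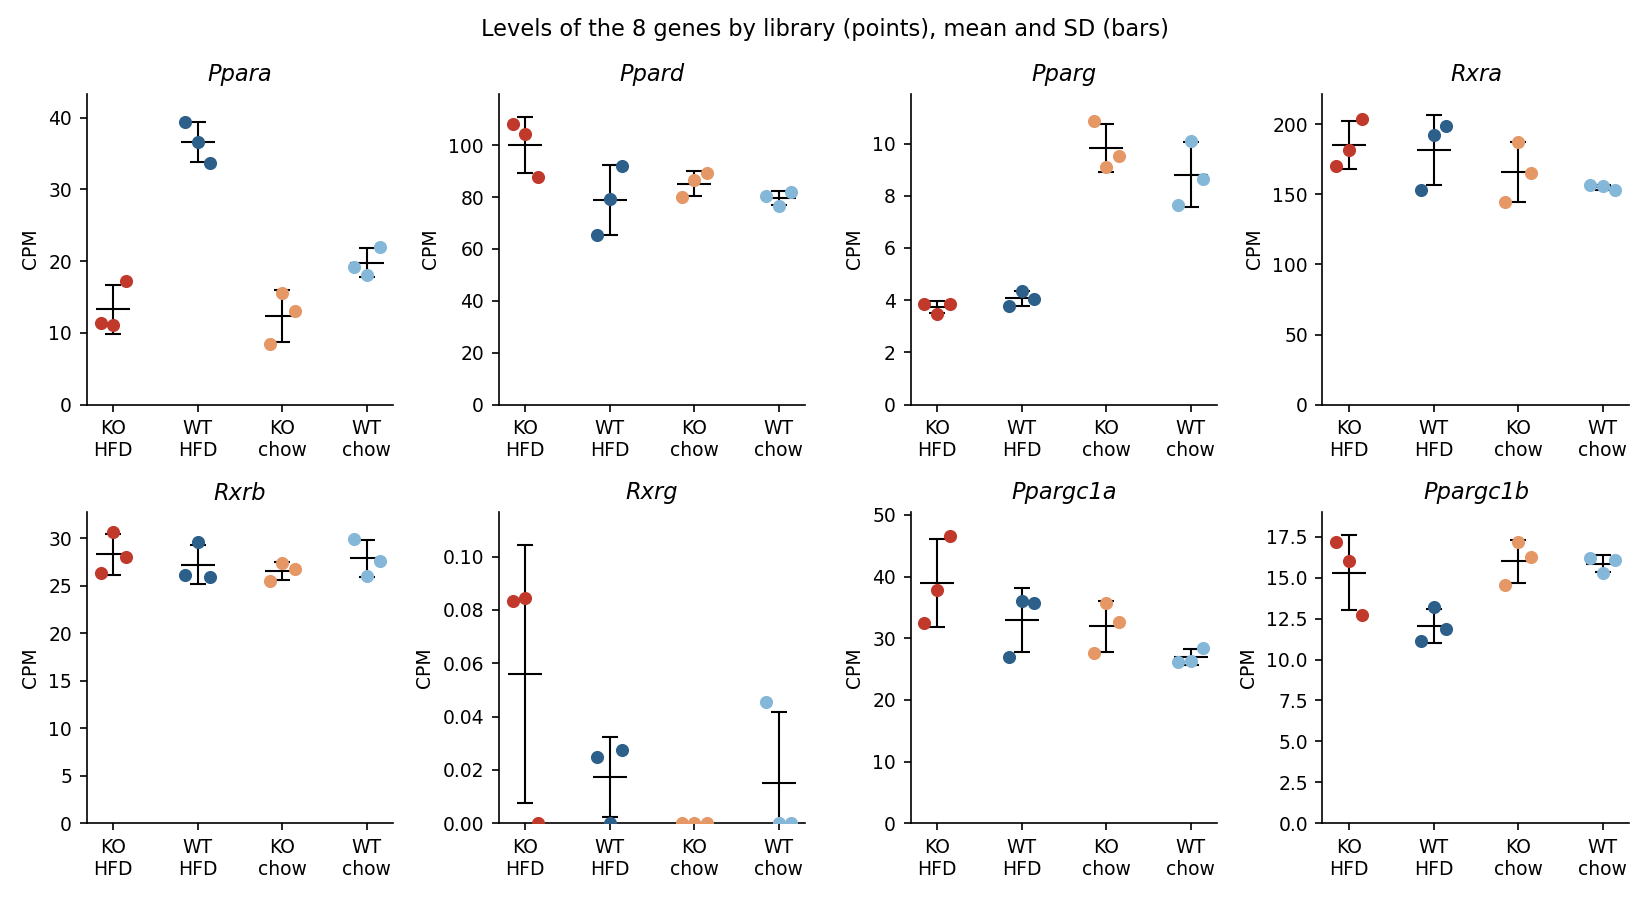
CPM of the members in each library, a panel per gene, with groups on the horizontal axis, points for libraries, and bars for the group mean and SD (n = 3). Ppara separates KO from WT and is highest in WT HFD (33.7 to 39.3 CPM), and Pparg separates HFD (3.46 to 4.37 CPM) from chow (7.66 to 10.9 CPM).

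In counts, 3 of 7 tested members passed for HFD against chow in WT (Ppara higher, Pparg and Ppargc1b lower), where 13.4% of all genes were called, 6.8% higher and 6.57% lower. Those 3 were also the members whose groups did not overlap, against 37.9% of all genes. For HFD against chow in KO, 1 of 7 passed (Pparg), where 8.2% of all genes were called and 4.76% were called lower. The groups of that gene alone among the 7 did not overlap, against 25.8% of all genes. No member passed the edgeR test of the genotype by diet interaction, where 0.00568% of all genes were called, and DESeq2 also called 0. There 1 of 7 members and 1116 of 17602 genes had an unadjusted p under 0.05. The median log2 fold change of all tested genes lay within 0.01 of 0 in each comparison.

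**Figure D3:**
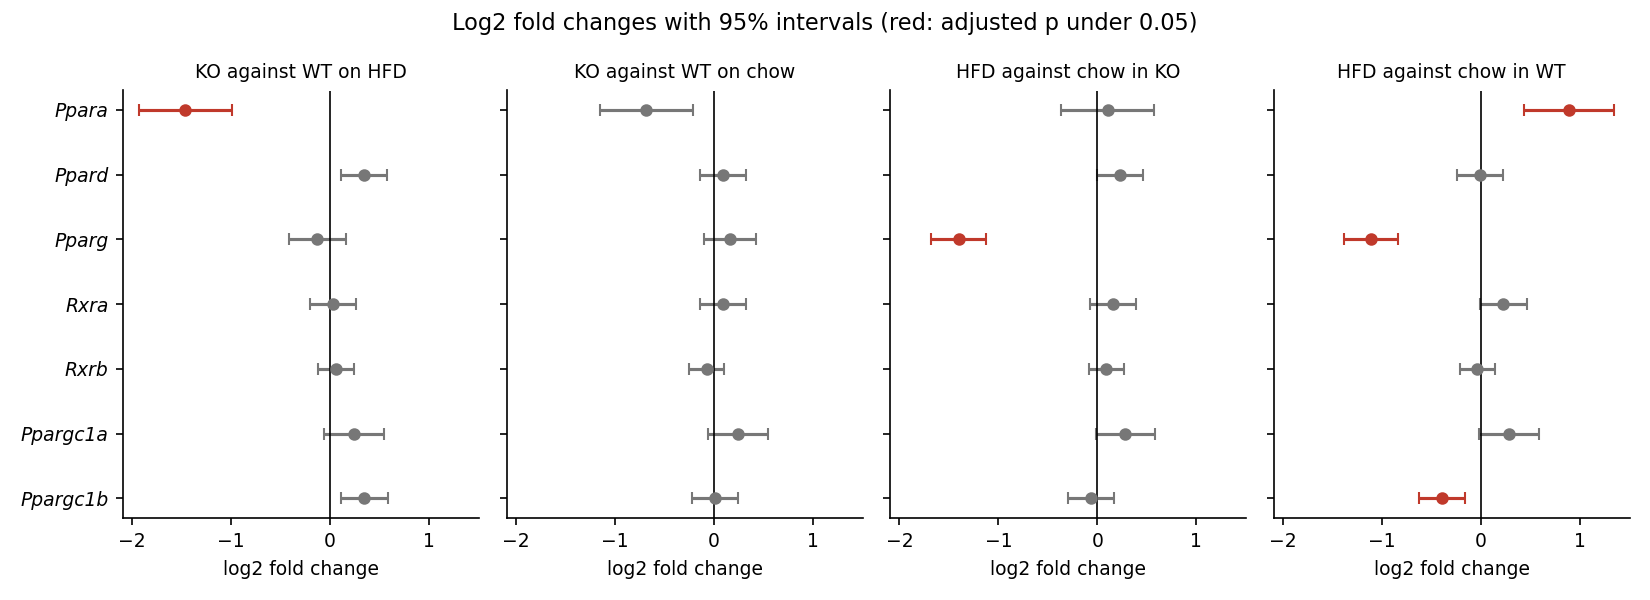
Log2 fold changes of the 7 tested members with 95% intervals, for KO against WT on HFD and on chow and for HFD against chow in KO and in WT, with red for adjusted p under 0.05. Ppara stands lowest in KO against WT on HFD (-1.46), and Pparg stands lowest for HFD against chow in KO (-1.40) and in WT (-1.11).

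Levels of different genes were compared as CPM per kilobase of merged exon. The order, overlaps and shares below depend on this length, which was 7514 bases for Ppard and 3836 for Ppara. Their longest transcripts have 3726 and 3413 bases. Over the 12 libraries the mean level was 31.5 for Rxra, 11.4 for Ppard, 6.92 for Rxrb, 5.34 for Ppara, 4.96 for Ppargc1a, 3.71 for Ppargc1b, 2.24 for Pparg and 0.00963 for Rxrg. Ppara moved through this order with genotype and diet. In KO HFD it was the sixth at 3.46 ± 0.903, next to Ppargc1b at 3.84 ± 0.576, whose libraries it overlapped. In WT HFD it was the third at 9.53 ± 0.729, overlapping Ppard at 10.5 ± 1.78 and above Rxrb at 6.85 ± 0.519. In KO chow it was the seventh at 3.22 ± 0.949, overlapping Pparg at 3.33 ± 0.311. In WT chow it was the fourth at 5.15 ± 0.525, above Ppargc1a at 4.09 ± 0.190 (CPM per kilobase, SD, n = 3 each). Rxra was the highest of the members in every group, with 28.04 to 37.3 CPM per kilobase over the HFD libraries and 26.5 to 34.3 over the chow libraries.

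As a share of the summed PPAR level per kilobase, Ppara made up 15.9, 16.2 and 25.7% in KO HFD, 50.7, 44.2 and 39.2% in WT HFD, 13.3, 21.8 and 18.3% in KO chow, and 27.4, 25.7 and 29.3% in WT chow. On each diet every KO library lay below every WT library. Ppard held the largest mean share in each group, at 73.7 ± 5.99% in KO HFD, 48.8 ± 5.83% in WT HFD, 63.4 ± 1.54% in KO chow and 56.6 ± 1.61% in WT chow. In WT HFD the first library was the exception at merged exon length, with Ppara at 50.7% and Ppard at 43.0%. The Pparg share was 6.99 ± 0.466% in KO HFD, 6.44 ± 0.372% in WT HFD, 18.8 ± 3.09% in KO chow and 15.96 ± 2.39% in WT chow (SD, n = 3 each). The makeup of the RXRs varied less, with Rxra at 82.5 ± 1.49% in KO HFD, 82.8 ± 1.93% in WT HFD, 81.8 ± 1.41% in KO chow and 80.2 ± 1.09% in WT chow. Nearly all of the rest was Rxrb. These shares restate the levels above, depend on the length used and are given without a test.

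**Figure D4:**
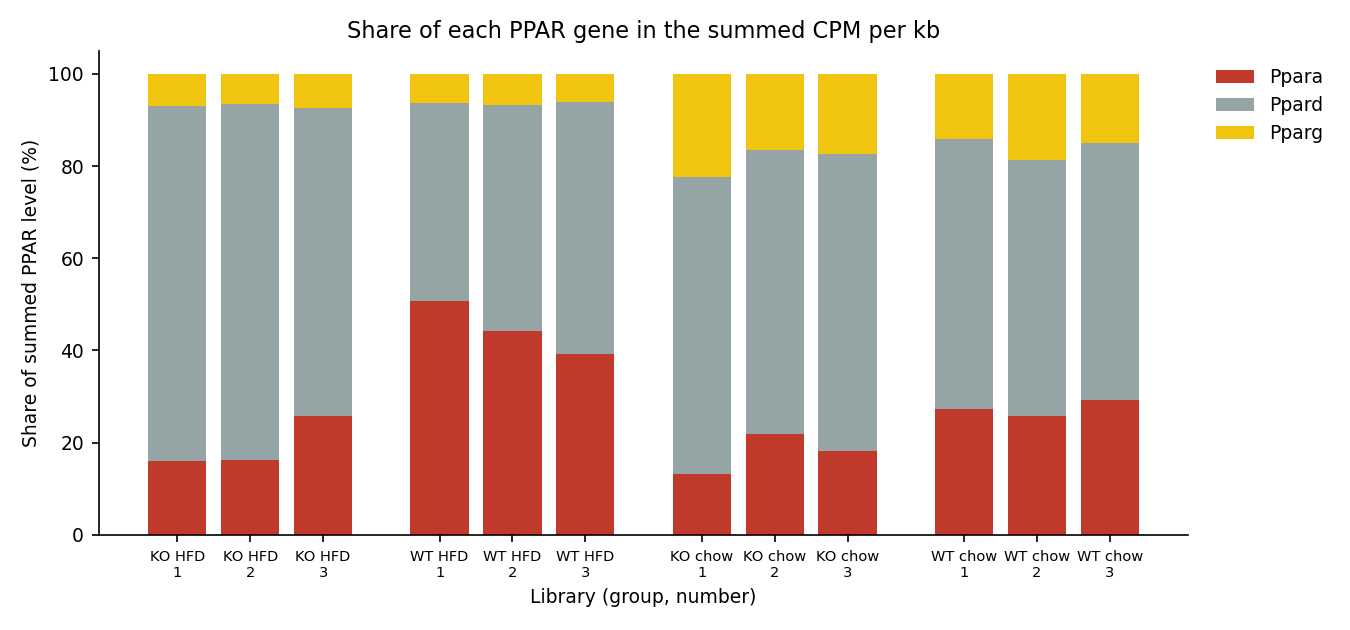
Stacked shares of Ppara, Ppard and Pparg in the summed PPAR level (CPM per kilobase of merged exon, percent) for each library. The Ppara part is 39.2 to 50.7% in WT HFD and 13.3 to 29.3% in the other groups, and the Pparg part is larger on chow than on HFD.

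Part of a list of known PPARA targets, genes of fat oxidation, transport and ketone bodies, rose on HFD in each genotype. Of 50 listed, 43 were tested. For HFD against chow in WT, 33 rose and 0 fell (6.8% of all genes were called higher), with a median log2 fold change of 0.63 against 0.01 for all genes. Hsd17b4, a peroxisomal beta-oxidation enzyme, had a log2 fold change of 1.66, Acaa1b, a peroxisomal thiolase, of 3.77, and Angptl4, a lipoprotein lipase inhibitor, of 2.22 (edgeR adjusted p = 0.00034 for each). For HFD against chow in KO, 12 rose and 0 fell (3.44% of all genes were called higher), with a median of 0.33. The smallest p-values were those of Pex11a, a peroxisome division factor (0.61, edgeR adjusted p = 0.0035), Hsd17b4 (1.16, edgeR adjusted p = 0.0037) and Slc25a20, the mitochondrial carnitine carrier (0.81, edgeR adjusted p = 0.0039). The KO count was 5 without KO chow 3, 8 without KO chow 1, 7 without KO HFD 3 and 20 with DESeq2, which called 2152 genes in all. Without both WT chow 1 and KO chow 3 the count of targets was 1 in KO and 16 in WT. For the same diet comparison in KO, 4 of 9 epithelial markers were called lower and 3 of 10 smooth muscle markers higher, and their part in the target counts was not tested. For the interaction, the test of the difference between those responses, edgeR called 0 of 43, with a median of -0.24. All 43 of these values lay below 0. There 12 of the 43 had an unadjusted p under 0.05, as did 1116 of 17602 genes. DESeq2 called 3 targets lower, and 57 genes in all in either direction. Fabp1, the liver fatty acid binding protein, showed the smallest interaction p among the targets (-3.64, SE 0.83, edgeR adjusted p = 0.48). It averaged 13.4 ± 4.46 CPM in KO HFD, 96.4 ± 63.2 CPM in WT HFD, 3.75 ± 0.0719 CPM in KO chow and 2.15 ± 0.242 CPM in WT chow (SD, n = 3 each).

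Between genotypes on HFD, 4 of 43 targets fell and 0 rose, where 0.187% of all genes were called lower, with a median log2 fold change of -0.39 and all 43 values below 0. The 4 were Acaa1b (-2.34, SE 0.36, edgeR adjusted p = 0.031), Acadvl, the very long chain acyl-CoA dehydrogenase (-0.64, SE 0.11, edgeR adjusted p = 0.031), Aldh3a2, a fatty aldehyde dehydrogenase (-0.57, SE 0.11, edgeR adjusted p = 0.042), and Acads. The product of Acads is the short chain acyl-CoA dehydrogenase (-0.49, SE 0.09, edgeR adjusted p = 0.044). Acaa1b averaged 2.55 ± 1.18 CPM in KO HFD and 12.8 ± 4.80 CPM in WT HFD, and Acadvl 107 ± 10.0 CPM in KO HFD and 166 ± 26.1 CPM in WT HFD (SD, n = 3 each). The count was 0 without each of the 8 libraries whose omission also ended the Ppara call, and 0 without both WT chow 1 and KO chow 3. It was 8 without WT HFD 3 and 14 without KO HFD 3. DESeq2 called 16 targets lower, and 288 genes in all in either direction. On chow edgeR called 0 of 43 targets between genotypes, with a median of -0.13. There 10 of the 43 had an unadjusted p under 0.05, as did 2293 of 17602 genes, and DESeq2 also called 0 targets. Without KO chow 1 edgeR called 2 lower. Eci2, an enoyl-CoA isomerase of peroxisomes and mitochondria, had the smallest p (-0.34, edgeR adjusted p = 0.21). Averaged over diets 7 fell and 0 rose, where 0.846% of all genes were called lower, led by Acadvl (-0.50, edgeR adjusted p = 0.013), Acads (-0.37, edgeR adjusted p = 0.019) and Eci2 (-0.41, edgeR adjusted p = 0.019). That count was 0 without WT chow 1 or KO chow 3, 1 without WT chow 3, and 3 without WT chow 2, KO chow 2, WT HFD 1, WT HFD 2 or KO HFD 2. It was 4 without KO HFD 1, 14 without KO chow 1, 15 without KO HFD 3 and 16 without WT HFD 3. With DESeq2 it was 20, among 978 genes called in all. The comparisons of genotype on HFD and of diet in WT share the WT HFD libraries, so their target values are not independent.

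**Figure D5:**
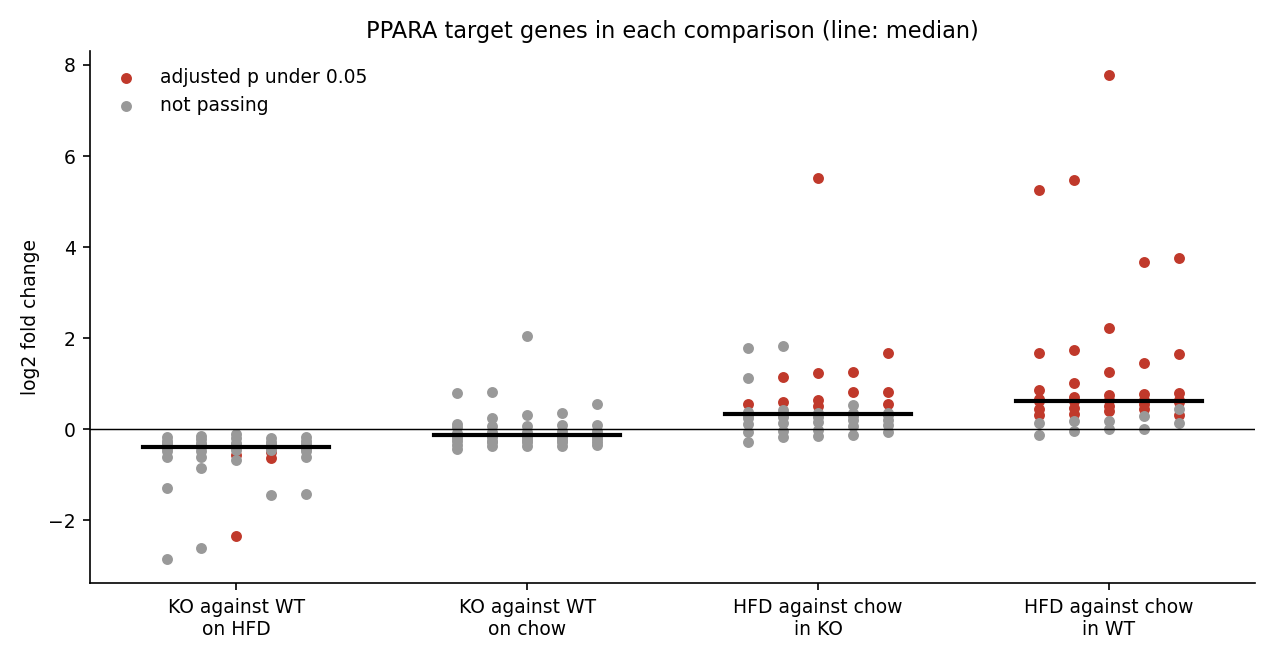
Log2 fold changes of the 43 tested PPARA targets in each comparison, a point per gene, with a line at the median. The median is 0.63 for HFD against chow in WT and 0.33 in KO, and -0.39 for KO against WT on HFD and -0.13 on chow.

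The genes that supply or carry PPAR ligands, 10 tested, showed calls between diets. Fabp1 is in this list and also among the PPARA targets above, so its values enter both counts. In WT 3 rose on HFD, where 6.8% of all genes were called higher, namely Fabp2, the intestinal fatty acid binding protein (1.43, edgeR adjusted p = 0.0002), Fabp1 (5.48, edgeR adjusted p = 0.0018) and Naaa, which degrades fatty acid ethanolamides (0.42, edgeR adjusted p = 0.025). In KO 1 rose, where 3.44% of all genes were called higher, Fabp2 (0.78, edgeR adjusted p = 0.0081), and Fabp1 was at 1.84 (edgeR adjusted p = 0.091). Between genotypes on HFD edgeR called 0 of 10 (4 had an unadjusted p under 0.05, and DESeq2 called 2 lower), with Fabp1 at -2.85 (edgeR adjusted p = 0.093) and Fabp2 at -0.64 (edgeR adjusted p = 0.11). In that comparison 2289 of 17602 genes had an unadjusted p under 0.05, and DESeq2 called 288. Fabp2 averaged 3681 ± 919 CPM in KO HFD, 5724 ± 753 CPM in WT HFD, 2140 ± 208 CPM in KO chow and 2121 ± 92.0 CPM in WT chow (SD, n = 3 each).

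The counts of the remaining lists are read against 6.8% of all genes called higher and 6.57% lower on HFD in WT, and 3.44% higher and 4.76% lower in KO. A single call in a list of 8 to 14 genes is near those shares and is not a result about the list. Among the other receptors that pair with RXR, 11 tested, 1 rose on HFD in WT, Thrb, the beta receptor of thyroid hormone (0.36, edgeR adjusted p = 0.045). In KO edgeR called 0 of 11, while 2 had an unadjusted p under 0.05 and DESeq2 called 1 higher and 1 lower. For diet in KO 4440 of 17602 genes had an unadjusted p under 0.05, and DESeq2 called 2152. Thrb there was at 0.37 (edgeR adjusted p = 0.054) and Rarg, a retinoic acid receptor, at -0.62 (edgeR adjusted p = 0.05, just above the threshold). Of 10 tested orphan and lipid-sensing receptors, 2 rose on HFD in WT, Hnf4g, a hepatocyte nuclear factor of gut epithelium (0.31, edgeR adjusted p = 0.035), and Nr0b2, the corepressor SHP (3.59, edgeR adjusted p = 0.036). Nr0b2 was at 0.573 to 1.51 CPM in WT HFD and 0.0379 to 0.114 CPM in WT chow. In KO edgeR called 0 of these 10 (3 had an unadjusted p under 0.05, and DESeq2 called 0).

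For the coregulators the shares of all genes called are the same, 6.8% higher and 6.57% lower in WT, and 3.44% higher and 4.76% lower in KO. Of 11 tested coactivators of nuclear receptors, 1 rose on HFD in both genotypes, Crebbp, the acetyltransferase CBP (0.36 in KO, edgeR adjusted p = 0.034, and 0.43 in WT, edgeR adjusted p = 0.011). Of 8 corepressor genes, Ncor1, which holds histone deacetylases on unliganded receptors, rose in KO (0.41, edgeR adjusted p = 0.016) and in WT (0.46, edgeR adjusted p = 0.0057). So did Tbl1xr1, a subunit of the same complex (0.33 in KO, edgeR adjusted p = 0.0099, and 0.27 in WT, edgeR adjusted p = 0.017). Lcor, a ligand-dependent corepressor, rose in WT (0.31, edgeR adjusted p = 0.048), and Hdac3, the deacetylase of that complex, fell in KO (-0.32, edgeR adjusted p = 0.02). Of 14 tested partners and regulators of PGC1, Lpin1, a phosphatidate phosphatase that also acts with PGC1-alpha in liver, fell in KO (-0.45, edgeR adjusted p = 0.043) and in WT (-0.54, edgeR adjusted p = 0.014). Gabpa, an ETS factor of mitochondrial genes, rose in WT (0.26, edgeR adjusted p = 0.026). Between genotypes edgeR called 0 genes of the lists of RXR partners, orphan receptors, coactivators, corepressors and PGC1 partners on either diet, with 0 to 2 of each list under an unadjusted p of 0.05, and DESeq2 called 0. Of all 17602 genes, 2289 on HFD and 2293 on chow were under that unadjusted p. Without WT chow 1 and KO chow 3 the calls of these 5 lists were all lost in both diet comparisons, and the ligand list kept a count of 2 in WT and 0 in KO.

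The genes most like each member were taken as the 3 with the highest Pearson correlation over the 12 libraries in log2 CPM, among 11530 genes, as a description in which all points share diet and genotype. For Ppara they were Tmem98 (r = 0.95), Cpped1 (r = 0.949) and Cyp2c65 (r = 0.947). Cyp2c65, a cytochrome P450 of the gut, averaged 21.4 ± 3.25 CPM in KO HFD, 47.8 ± 11.7 CPM in WT HFD, 23.5 ± 3.11 CPM in KO chow and 30.2 ± 2.18 CPM in WT chow (SD, n = 3 each). Tmem98 and Cpped1 spanned less, with means of 87.8 and 37.8 CPM in KO HFD and of 100.4 and 43.1 CPM in WT HFD. For Pparg they were Tgm5, a transglutaminase (r = 0.974), S100a6, a calcium binding protein (r = 0.973), and Prss8, a membrane-bound serine protease of epithelia (r = 0.969). Prss8 averaged 6.31 ± 0.0986 CPM in KO HFD, 7.65 ± 0.154 CPM in WT HFD, 13.1 ± 0.0851 CPM in KO chow and 13.2 ± 0.841 CPM in WT chow (SD, n = 3 each). It fell by 1.05 on the log2 scale on HFD in KO (edgeR adjusted p = 4.2e-05) and by 0.79 in WT (edgeR adjusted p = 0.0002). For Ppard the most alike were Alpk1, Plce1 and Psd3 (r = 0.92 to 0.922), and for Rxra Plekhg2, Mgea5 and Ankrd12 (0.976 to 0.989). For Ppargc1a they were Pcsk5, Clec16a and Tnrc18 (0.967 to 0.975), and for Ppargc1b they were Cbx7, Metap1d and Tnk2 (0.917 to 0.927). The highest values for Rxrb, the member that varied least, were 0.743 to 0.758 (Ints6, Harbi1 and Slc2a6).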

How the data were processed

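Gene expression was measured in 12 libraries of mouse intestine, prepared from total RNA with TruSeq Stranded reagents, per the labels' protocols. The values the authors deposited are expected counts per gene, not scaled between libraries. Trimmomatic, STAR, Picard, RSEM and mm10 are named in the submitters' processing notes, with neither version nor role. Strand setting and annotation release: not given in the sources used here. Therefore reads of antisense or overlapping genes may be shared. By GENCODE vM21, no exon of the members described here overlapped an exon of another gene. Gene IDs were matched to GENCODE vM21 (47224 of 47643).

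Expected counts were rounded and tested with edgeR 4.0.16 in R 4.3.3 (quasi-likelihood F test, robust fit, TMM, filterByExpr), in a single fit of 4 group means. The 6 contrasts were genotype on each diet, diet in each genotype, their interaction and genotype averaged over diets. Benjamini-Hochberg adjustment ran over 17602 genes per contrast, with a threshold of 0.05. Log2 fold changes, standard errors and 95% intervals come from that fit. CPM used TMM-scaled totals. Levels per kilobase used merged exons of GENCODE vM21, and correlations used log2 of CPM plus 0.5. Promoters came from RefSeq on GRCm38.p6, and motifs were searched on both strands.

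The members and gene lists were chosen with earlier results of these data known. The text names all 8 members, genes among the 3 with the smallest p of each list in each comparison, and the 3 genes most correlated with each member at a mean log2 CPM of at least 1. Acads, the other target called on HFD, and Fabp1 as a promoter example were added after their values were seen. A permutation test of the shares was planned and is not reported, since the shares combine chosen members. Alternatives were DESeq2 1.42.0 (size factors, or its Wald test), the replicate number as a blocking factor, no filter, a minimum of 50 counts in 3 libraries, a fit of only the groups compared, omission of each library in turn, and omission of WT chow 1 and KO chow 3 together. Scripts were checked on simulated data. Tables and figures were made with pandas 2.3.3, SciPy 1.17.1 and matplotlib 3.10.9 in Python 3.11.15.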

Additional observations from a re-analysis of the deposited data

How the results depend on the processing

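Among 784 alternative values of the 42 member results, 723 kept their direction and side of the threshold, 23 lost and 1 gained a call, and 37 changed sign; the cause was not tested. Genes called numbered 186 on chow, 288 on HFD, 57 for the interaction and 978 averaged over diets with DESeq2 (22, 51, 1 and 262 with edgeR), and 49, 94 and 4 (chow, HFD, interaction) with no filter. A minimum of 50 counts gave 0 for the interaction. With only the groups compared, 54 were called on chow, 6 on HFD and 335 for diet in KO. Without WT chow 1 and KO chow 3 together, the counts were 1 on chow, 3 on HFD, 458 for diet in WT, 185 for diet in KO, 0 for the interaction and 3 averaged, and members called were 0 on HFD, 1 for diet in WT and 0 averaged. With a library left out, genes called ranged from 1 to 517 on chow, 5 to 173 on HFD, 895 to 3089 for diet in WT, 451 to 2551 for diet in KO, 0 to 19 for the interaction and 11 to 1463 averaged, and members called from 0 to 0, 0 to 1, 1 to 3, 1 to 1, 0 to 0 and 0 to 1 in the same order. The replicate block changed no member call (Ppara on HFD had an adjusted p of 0.047) and gave 14 genes on chow and 0 for the interaction, with 41 on HFD and 378 averaged. Same-numbered libraries did not deviate together (r of -0.111 to 0.143 over 12 pairs), and differently numbered libraries gave -0.261 to 0.228 over 24 pairs. With 3 libraries per group this check cannot exclude pairing, and the labels do not say what the numbers mean. Signs turned for near-zero values: Rxrb averaged to 0.0083 (50 counts) and 0.013 (both chow libraries out), Rxrb for diet in WT to 0.0103 and Pparg averaged to -0.0225 (both out), and the Ppargc1a interaction to 0.0052 (replicate block) and 0.0242 (both out). With a library left out, log2 ranges that crossed 0 were -0.11 to 0.0106 (Rxrb) and -0.14 to 0.0873 (Ppard) for diet in WT, -0.15 to 0.31 (Ppara) and -0.15 to 0.0313 (Ppargc1b) for diet in KO, -0.0032 to 0.19 (Rxra) and -0.0410 to 0.0813 (Ppargc1b) on chow, -0.0810 to 0.10 (Rxra) and -0.0025 to 0.13 (Rxrb) on HFD, -0.16 to 0.11 (Ppargc1a) and -0.17 to 0.0335 (Rxra) for the interaction, and -0.0320 to 0.0705 (Pparg), -0.0370 to 0.0252 (Rxrb) and -0.0004 to 0.10 (Rxra) averaged. The Ppara share difference, KO minus WT over diets, was -17.54 percentage points and ranged from -19.16 to -13.13. In a setting chosen after seeing the data, PPARA target counts were recomputed: with a library left out, 0 to 14 fell between genotypes on HFD, and 24 to 35 rose for diet in WT and 5 to 17 in KO. With both chow libraries out 0 fell on HFD, and 16 rose in WT and 1 in KO. With only the groups compared 0 fell on HFD and 5 rose in KO, the block left 1 on HFD, no filter gave 8, and DESeq2 20 averaged and 20 for diet in KO. Depth limits Rxrg, which no comparison could test.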
